A study of Zea mays with 8 samples.

Results

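The genes described here carry out the first steps of nitrate use: NRT2 transporters, the NAR2 protein that partners them, an NRT1.1 transporter, nitrate reductases and nitrite reductases. They were taken by name from the deposited expression table of maize leaf 6, with earlier results of these data known. The 10 names given for them reached 8 loci of the 43110 in the table, because NNR1 is the RefSeq symbol of GRMZM2G568636 and NIR is listed there as a synonym beside GRMZM2G079381. Of the 8 loci, 4 averaged 1 FPKM or more in some group and were tested, FPKM being the fragments counted for a locus, scaled for its length and for the size of the library. The other 4 lay near 0 throughout.

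RNA came from hydroponically grown plants of the maize inbred B73, with no mutation or transgene in any group. The groups were the division zone at low nitrogen (LN, 0.04 mM), the division zone at high nitrogen (HN, 4 mM), the elongation zone at LN and the elongation zone at HN, with 2 libraries in each and 8 in all. Plant age and the number of plants per library are not stated in the labels, and the 2 libraries of a group are described as biological replicates. The study concerns how a shortage of nitrogen reduces the growth of the leaf.

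Nitrate enters plant cells through membrane transporters of the NRT1 and NRT2 families, the NRT2 proteins being known for high-affinity uptake in roots, where they need NAR2 to reach the membrane. Nitrate reductase turns nitrate into nitrite in the cytosol, and nitrite reductase turns the toxic nitrite into ammonium in the plastid with electrons from ferredoxin. In many plants nitrate itself raises the transcripts of both reductases, and in leaves light raises them too.

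The zone labels were compared with genes of dividing and of lengthening cells. These were chosen with earlier results of these data known, so this is no independent check. All 6 genes of dividing cells were lower in the elongation zone than in the division zone at HN, and all 6 genes of lengthening cells were higher. The same counts held at LN. Of all 24706 tested loci, 4855 were called lower and 5453 higher at HN, and 5534 lower and 6473 higher at LN. The summed level of 5 genes of the mature, photosynthetic blade was 206 to 343 FPKM in LN and 1107 to 1531 FPKM in HN elongation libraries, and 22.7 to 31.1 FPKM in LN and 68.3 to 71.1 FPKM in HN division libraries, so blade genes moved with both nitrogen and zone. The other sums differed with supply too. Genes of dividing cells summed to 22.5 to 33.3 FPKM in LN and 61.6 to 95.7 FPKM in HN elongation libraries. RNRS1 alone had 39.4 and 72.2 FPKM in those HN libraries. In that zone 3 of the 6 were called lower at LN and 0 higher, beside 12.5% and 9.86% of all tested loci. The other genes, krp13, cyc3 and cyclin11, had both LN libraries above both HN libraries. In division libraries genes of dividing cells summed to 391 to 443 FPKM at LN and 308 to 336 FPKM at HN. Genes of lengthening cells summed to 972 to 1001 FPKM in LN and 602 to 944 FPKM in HN elongation libraries. Of these 6 genes, 1 (CesA-4) was called higher at LN in that zone and 0 lower. LN and HN libraries overlapped for PIP2-3, PIP2-4, TIP2-1 and expB6, and PIP2-4 alone had 232 and 417 FPKM at HN. In division libraries genes of lengthening cells summed to 15.8 to 16.9 FPKM at LN and 25.9 to 29.5 FPKM at HN. HN elongation replicate 2 had the highest FPKM total of the 8 (1113553, against 652957 to 852561 in the others). The median SD between the HN elongation replicates was 0.27 on the log2 scale, against 0.10 to 0.15 in the other groups. With 2 libraries this cannot say which of them deviates. In bulk tissue, fewer cells that express a gene and less RNA per cell cannot be told apart.

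Transcripts of the high-affinity uptake system were close to absent from the growing leaf. NRT2.1 (GRMZM2G010280, chromosome 4, 240779448 to 240781473 on B73 RefGen_v3, the build of all positions here) was listed at 0 in all 8 libraries. NRT2.2 (GRMZM2G010251, chromosome 4, 240790398 to 240792301), its neighbour on the chromosome, was listed at 0.0276 FPKM in LN division replicate 2 and at 0 in the other 7 libraries. RefSeq files the identifier of NRT2.1 under both genes, and the labels do not state how reads matching both copies were counted. NAR2.1 (GRMZM2G179294, chromosome 5, 180782642 to 180783869), the partner protein of NRT2 transporters, was listed at 0 in both LN division libraries, against 0.212 and 0.129 FPKM at HN in that zone. Elongation libraries had 0.119 and 0.327 FPKM at LN, against 0.157 and 0 FPKM at HN. These levels are too low for a comparison, and with read numbers unknown no lower limit of detection can be given.

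GRMZM2G086496, the locus taken as the NRT1.1 transporter (chromosome 10, 80056274 to 80062481), was by contrast the most abundant member in every group, and its level differed between the zones and not detectably with nitrogen supply. In the division zone it had 22.8 and 31.3 FPKM at LN, against 28.5 and 28.6 FPKM at HN. Elongation libraries had 153 and 135 FPKM at LN, against 108 and 169.9 FPKM at HN. The LN and HN libraries overlapped in both zones, while every elongation library lay above every division library. Its log2 difference between LN and HN was -0.09 in the division zone (95% interval -0.69 to 0.50, limma adjusted p = 0.876) and 0.09 in the elongation zone (-0.51 to 0.68, adjusted p = 0.826). Differences here are on the log2(FPKM + 1) scale, which understates changes of genes near or under 1 FPKM, and a change within these intervals could not be detected. Scaling all libraries to equal totals gave 0.55 in the elongation zone (adjusted p = 0.0390), a scaling under which the median of all tested loci moved to 0.43, against 0.07 as deposited. RefSeq lists the name Nrt1.1 beside 2 other identifiers, GRMZM2G041631 and GRMZM2G141491, both listed at 0 in all 8 libraries.

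**Figure D1:**
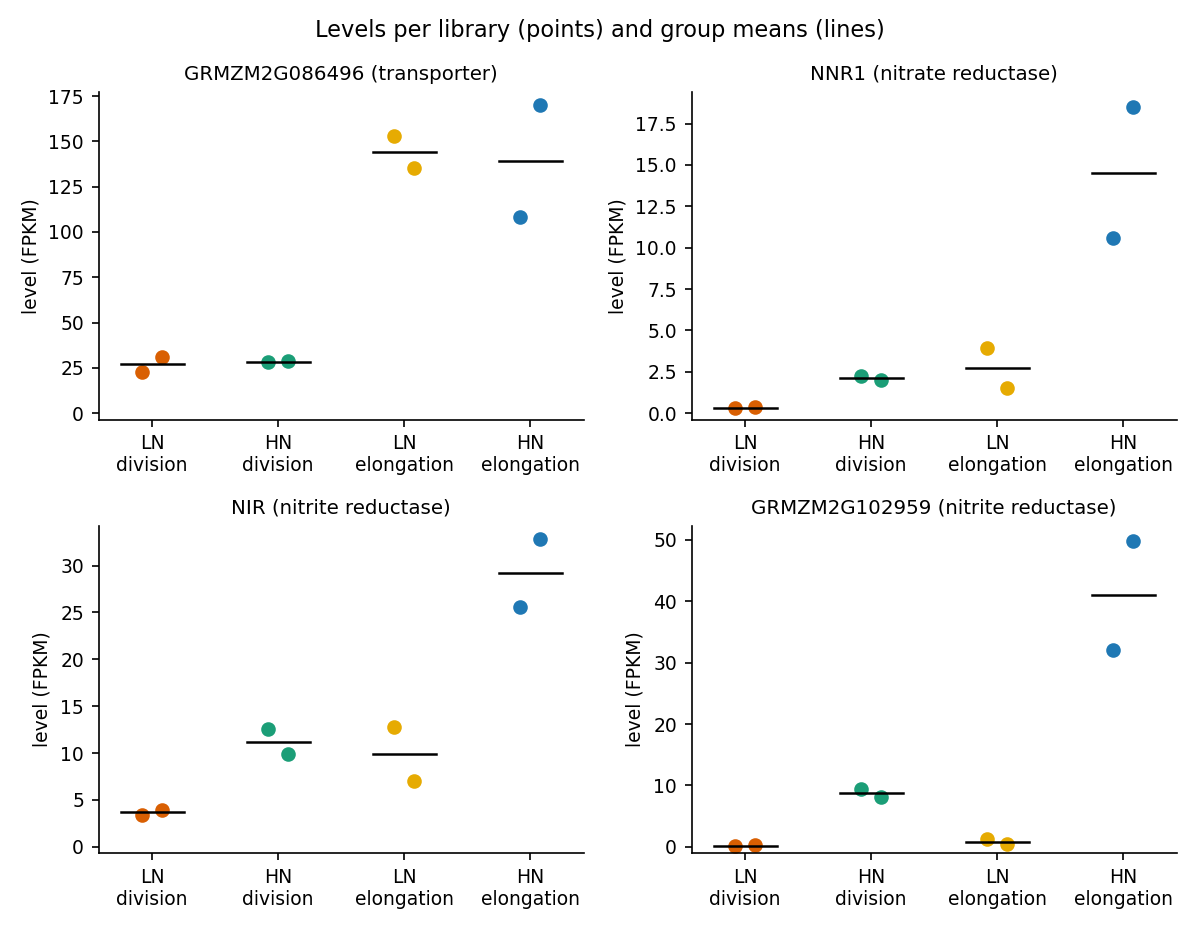
Level in FPKM of the 4 tested loci in each library (points) with the group mean (line), by group. GRMZM2G086496 is high in both elongation groups, whereas NNR1, NIR and GRMZM2G102959 are lower in LN than in HN libraries of the same zone.

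Nitrate reductase transcripts were lower at LN. NNR1 (GRMZM2G568636, chromosome 4, 56335735 to 56340792), which encodes nitrate reductase, had 3.91 and 1.52 FPKM in LN elongation libraries, against 10.6 and 18.5 FPKM in HN elongation libraries. In the division zone it had 0.291 and 0.379 FPKM at LN, against 2.22 and 1.99 FPKM at HN. Both LN libraries lay below both HN libraries in each zone. The mean was 5.35-fold lower at LN in the elongation zone (log2 difference -2.09 ± 0.36 SE, adjusted p = 0.0119) and 6.29-fold lower in the division zone, where the difference did not pass the threshold (-1.22 ± 0.36 SE, adjusted p = 0.101). With a pseudocount of 0.1 in place of 1, the division zone difference was -2.35 and passed (adjusted p = 0.0396). The fold in the elongation zone was 9.53 without LN elongation replicate 1. Without LN elongation replicate 2 the elongation zone difference was -1.61 and was not called (adjusted p = 0.0658). GRMZM2G428027 (chromosome 4, 177685320 to 177689170), the other locus taken as a nitrate reductase, was listed at 0 in all 4 LN libraries and reached at most 0.0407 FPKM at HN, so NNR1 held nearly all nitrate reductase signal of the 2 loci.

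Nitrite reductase was covered by 2 loci that both fell at LN in both zones, by very different amounts. GRMZM2G102959 (chromosome 5, 209955746 to 209958660) had 1.33 and 0.369 FPKM in LN elongation libraries, against 32.1 and 49.9 FPKM in HN elongation libraries, and 0.0923 and 0.216 FPKM in LN division libraries, against 9.38 and 8.14 FPKM in HN division libraries. Its mean level exceeded that of 8.69% of tested loci in LN elongation and 85.9% in HN elongation libraries, and 3.87% in LN division and 55.5% in HN division libraries, and in the HN elongation zone it was the second most abundant member. Its mean was 48.1-fold lower at LN in the elongation zone (log2 difference -4.52 ± 0.30 SE, adjusted p = 0.00206) and 56.8-fold lower in the division zone (-3.08 ± 0.30 SE, adjusted p = 0.00776). The folds rest on LN means below 1 FPKM and are imprecise. Leaving out LN elongation replicate 1 or 2 gave 111-fold or 30.7-fold in the elongation zone, and leaving out LN division replicate 1 or 2 gave 40.5-fold or 94.9-fold in the division zone. Among all 24706 tested loci these log2 differences were the 8th and the 23rd lowest. Without any 1 of the 4 division libraries the division zone call was lost, at adjusted p = 0.0666 to 0.0836, while the difference stayed between -3.17 and -2.99.

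NIR (chromosome 4, 178613063 to 178616618) had 12.8 and 6.98 FPKM in LN elongation libraries, against 25.6 and 32.8 FPKM in HN elongation libraries. In the division zone it had 3.39 and 3.93 FPKM at LN, against 12.6 and 9.85 FPKM at HN. Groups did not overlap within either zone. The mean was 2.96-fold lower at LN in the elongation zone (log2 difference -1.52 ± 0.28 SE, adjusted p = 0.0144) and 3.06-fold lower in the division zone (-1.38 ± 0.28 SE, adjusted p = 0.0420). The division zone call rested on little: it was lost with the replicate block (adjusted p = 0.0737), with no filter on low values (0.0618) and without any 1 of the 4 division or 2 LN elongation libraries (0.0585 to 0.230). In the elongation zone the call was lost without LN elongation replicate 2 (adjusted p = 0.0695) and without HN elongation replicate 2 (0.0542).

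In limma, 3 of the 4 tested members fell at LN in the elongation zone and 0 rose, where 12.5% of all tested loci were called lower and 9.86% higher. In the division zone 2 of 4 fell and 0 rose, where 3.27% of all tested loci were called lower and 1.81% higher. At an unadjusted p under 0.05 there were 3 members in each zone, and all of them were lower. Of the 24706 tested loci, 9879 reached this in the elongation zone and 5786 in the division zone, in either direction. In each zone 3 of 4 members had both LN libraries below both HN libraries, as did 28.8% of tested loci in the elongation zone and 31.8% in the division zone. NIR and GRMZM2G102959 were called lower in both zones, as were 2.32% of tested loci. The members' median log2 difference was -1.80 in the elongation zone and -1.30 in the division zone, beside 0.07 and -0.01 over all tested loci. Only members that reached 1 FPKM in some group enter these counts and medians. GRMZM2G102959 averaged under 1 FPKM in both LN groups and passed this filter through its HN groups alone, which favours a fall. With no filter on low values it was still called lower, at limma adjusted p = 0.00447 in the elongation zone and 0.0138 in the division zone. All 5 mature blade genes also fell at LN in the elongation zone, and 3 of 5 did in the division zone, with median log2 differences of -2.47 and -1.03. Their part in the result was not tested. With only the 2 elongation groups fitted, which called 42 loci in place of 5531, NNR1 and NIR were not called (adjusted p = 0.0658 and 0.0697), and GRMZM2G102959 was (0.0435).

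**Figure D2:**
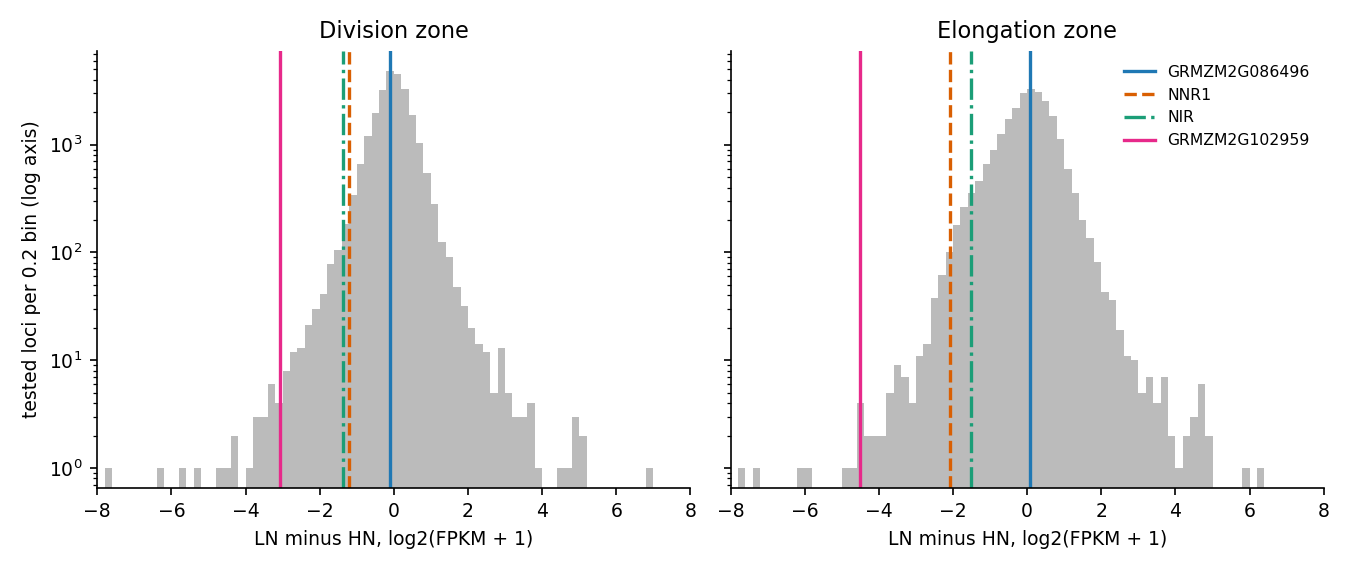
Histograms of the difference between LN and HN on the log2(FPKM + 1) scale over all 24706 tested loci in each zone, with lines at the 4 tested members and a log axis for the number of loci. GRMZM2G102959 lies in the far lower tail in both zones and GRMZM2G086496 near 0.

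The balance between the nitrite reductase loci differed with nitrogen supply. GRMZM2G102959 made up 2.65% and 5.21% of their summed FPKM in the LN division libraries, against 42.8% and 45.3% in the HN division libraries, and 9.45% and 5.02% in the LN elongation libraries, against 55.7% and 60.3% in the HN elongation libraries. All 4 LN shares lay below all 4 HN shares. The mean share was 5.58% ± 2.83 at LN and 51.0% ± 8.35 at HN (SD, n = 4 each, both zones together). A two-sided exact permutation test gave p = 0.0286, the smallest that 4 against 4 libraries allow, and p = 0.0556 with labels exchanged only within a zone, again the smallest possible. This measure was chosen after its values were seen. The sum of both loci was 5.23-fold lower at LN in the division zone and 6.54-fold lower in the elongation zone, and GRMZM2G102959 accounted for 53.3% and 67.5% of the difference in FPKM. At LN, NIR was therefore the predominant nitrite reductase transcript in both zones. At HN, GRMZM2G102959 lay above NIR in both elongation libraries and below NIR in both division libraries.

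**Figure D3:**
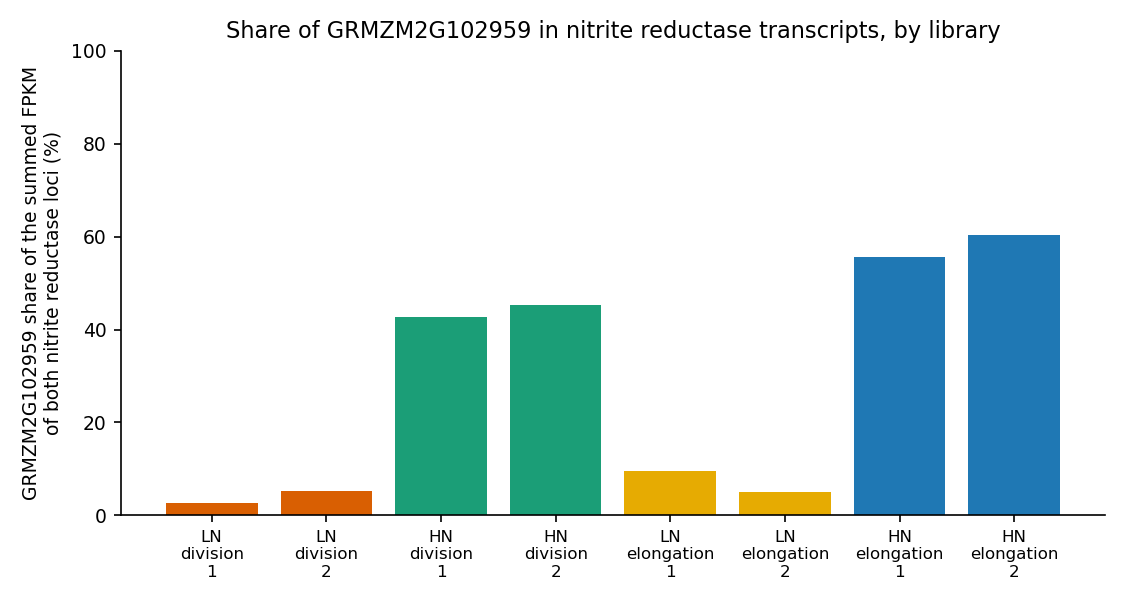
Share of GRMZM2G102959 in the summed FPKM of both nitrite reductase loci, in percent, 1 bar per library. The LN libraries lie between 2.65% and 9.45% and the HN libraries between 42.8% and 60.3%.

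All 4 tested members were higher in the elongation zone than in the division zone at HN, where 22.1% of all tested loci were called higher. The transporter GRMZM2G086496 was 4.87-fold higher (log2 difference 2.21 ± 0.25 SE, adjusted p = 0.000771) and NNR1 was 6.90-fold higher (2.28 ± 0.36 SE, adjusted p = 0.00295). GRMZM2G102959 was 4.68-fold higher (2.08 ± 0.30 SE, adjusted p = 0.00216) and NIR 2.61-fold higher (1.31 ± 0.28 SE, adjusted p = 0.0100). Without HN division replicate 2 the call for NIR was lost (adjusted p = 0.0710).

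At LN, 3 of the 4 were called higher in the elongation zone, where 26.2% of all tested loci were. GRMZM2G086496 was 5.33-fold higher (log2 difference 2.39 ± 0.25 SE, adjusted p = 0.000400), NNR1 8.12-fold higher (1.40 ± 0.36 SE, adjusted p = 0.0167) and NIR 2.70-fold higher (1.17 ± 0.28 SE, adjusted p = 0.0124). Both calls were lost without LN division replicate 1 or 2 or LN elongation replicate 1, at adjusted p = 0.0753 to 0.0961 for NNR1 and 0.0541 to 0.0753 for NIR, and without LN elongation replicate 1 the difference was 0.92 for NNR1, a fold of 4.55, and 0.78 for NIR. GRMZM2G102959 was under 1 FPKM in 3 of the 4 LN libraries; its difference was 0.63 (95% interval -0.09 to 1.36, adjusted p = 0.128), and 1.73 with a pseudocount of 0.1 (adjusted p = 0.0349). In both comparisons of zones every elongation library lay above every division library for all 4 members, as it did for 33.9% of tested loci at HN and 42.9% at LN. The 5 mature blade genes were also higher in the elongation zone at both supplies, and their part in these differences was not tested.

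**Figure D4:**
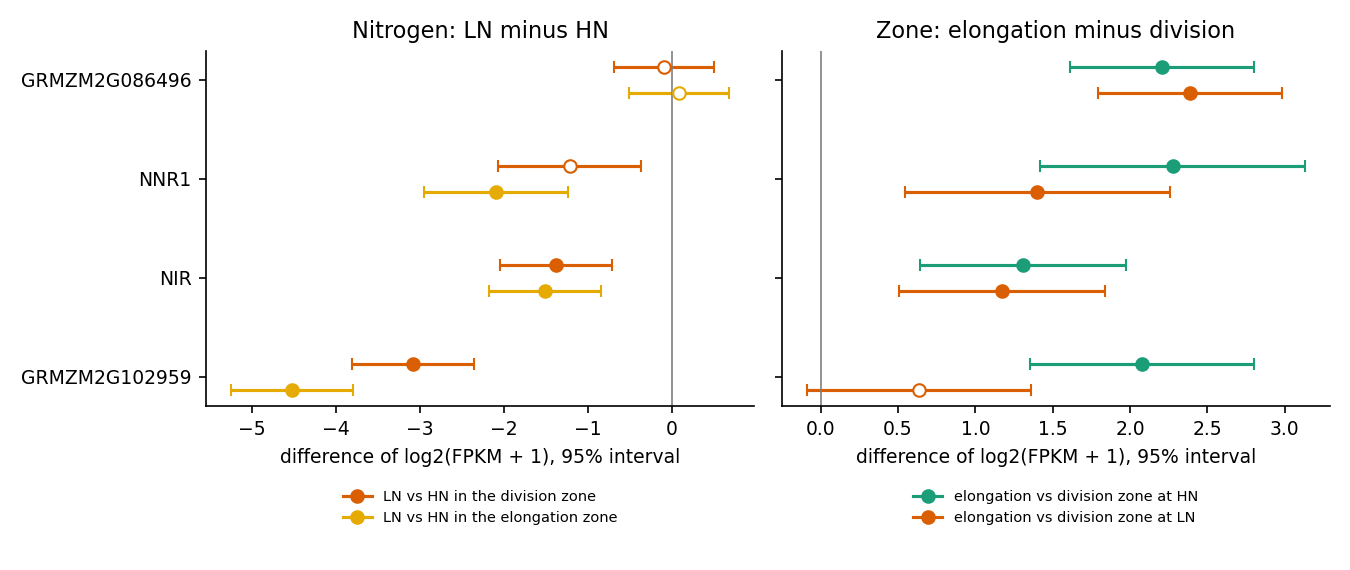
Differences on the log2(FPKM + 1) scale with 95% intervals, LN minus HN in each zone (left) and elongation minus division zone at each supply (right). Filled points passed the adjusted threshold and open points did not; the transporter GRMZM2G086496 differs between zones and not detectably between supplies.

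The nitrogen response of the members was not shown to differ between the zones. In limma 0 of 4 passed the threshold for that difference, where 0.283% of all tested loci did. At an unadjusted p under 0.05 there were 4454 of all 24706 tested loci and 1 of the members. That was GRMZM2G102959, for which the difference in the elongation zone minus that in the division zone was -1.44 on the log2 scale (95% interval -2.47 to -0.42, unadjusted p = 0.0127, adjusted p = 0.189). With a pseudocount of 0.1 this difference was -0.45 (adjusted p = 0.765). For NNR1, NIR and GRMZM2G086496 the intervals were -2.08 to 0.33, -1.07 to 0.81 and -0.66 to 1.02.

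Relative to nitrate reductase, nitrite reductase transcripts were lower in the elongation zone than in the division zone. The summed FPKM of both nitrite reductase loci was 3.61 and 4.82 times that of NNR1 in the LN elongation libraries and 5.46 and 4.47 times in the HN elongation libraries. In the division zone it was 11.97 and 10.96 times at LN and 9.88 and 9.03 times at HN. Every elongation library lay below every division library (4.59 ± 0.773 and 10.5 ± 1.28, SD, n = 4 each, two-sided exact permutation p = 0.0286, the smallest possible, and 0.0556 within supplies). Between supplies the means differed in opposite directions in the zones, and the mean ratio was 4.22 ± 0.859 at LN and 4.96 ± 0.701 at HN in the elongation zone, where the libraries overlapped, and 11.5 ± 0.715 at LN and 9.45 ± 0.599 at HN in the division zone, where both LN libraries lay above both HN libraries (SD, n = 2 each). Within 1 zone, 2 against 2 libraries cannot give a two-sided exact permutation p below 0.333, so a difference with supply could not be tested there. Over both zones the mean ratio was 7.84 ± 4.23 at LN and 7.21 ± 2.65 at HN (SD, n = 4 each). The two-sided exact permutation test gave p = 0.686, and 0.389 with labels exchanged only within a zone. That test cannot show differences that go in opposite directions in the zones. This ratio too was chosen after its values were seen, and with NNR1 under 0.4 FPKM in the LN division libraries it rests on low values there.

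Other genes of the pathway were taken from lists based on names in the RefSeq gene table. In all, 27 loci were in the table and 21 were tested. In the elongation zone 10 of 21 fell at LN and 0 rose (median log2 difference -0.89), and in the division zone 7 of 21 fell and 0 rose (-0.83), beside medians of 0.07 and -0.01 over all tested loci. Of all tested loci, 12.5% were called lower and 9.86% higher in the elongation zone, and 3.27% lower and 1.81% higher in the division zone. Both hemoglobin loci and an ammonium assimilation locus, called lower in both zones, averaged under 1 FPKM in each LN group. They passed the filter through HN groups alone, which favours a fall. A ferredoxin locus that was not called entered through HN elongation replicate 1 alone, at 5.81 FPKM.

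Ammonium assimilation genes, which take up the product of nitrite reductase, fell at 4 of 8 loci in each zone and rose at 0 with values as deposited, where 12.5% of all tested loci were called lower in the elongation zone and 3.27% in the division zone. Among the 4 in each zone was a locus that averaged 0.153 FPKM in LN division and 0.499 FPKM in LN elongation libraries. It passed the filter through its HN groups alone (1.75 and 1.90 FPKM), which favours a fall. A glutamine synthetase locus named GLN2 (XLOC_009297) had 30.3 and 33.8 FPKM in LN elongation libraries, against 106 and 106 FPKM in HN elongation libraries (adjusted p = 0.00258), and 12.0 and 13.2 FPKM in LN division libraries, against 34.5 and 34.5 FPKM in HN division libraries (adjusted p = 0.00667). Another locus of that name (XLOC_005784) had 4.69 FPKM on average at LN and 9.06 FPKM at HN in the elongation zone (adjusted p = 0.0160), and 0.658 and 4.69 FPKM in the division zone (adjusted p = 0.00523). GDH1, glutamate dehydrogenase, averaged 10.4 FPKM at LN and 15.9 FPKM at HN in the elongation zone (adjusted p = 0.0319) and 8.54 and 17.9 FPKM in the division zone (adjusted p = 0.0177). These 3 loci share their span with another locus, so reads may have been split between them. With libraries scaled to equal totals, GDH1 and XLOC_005784 were not called in the elongation zone.

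The most abundant glutamine synthetase locus lay on the other side. Gln1-4, named here after its values were seen, had 828 and 786 FPKM in LN elongation libraries, against 337 and 593 FPKM in HN elongation libraries, and 365 and 440.1 FPKM in LN division libraries, against 232 and 212 FPKM in HN division libraries. Both LN libraries lay above both HN libraries in each zone. The log2 difference was 0.85 in each zone and did not pass the threshold (adjusted p = 0.0844 in the elongation and 0.152 in the division zone, unadjusted p = 0.0273 and 0.0270). The locus gln1-3, also named after its values were seen, averaged 118 FPKM at LN and 91.6 FPKM at HN in the elongation zone and 55.3 and 44.8 FPKM in the division zone (adjusted p = 0.191 and 0.423), again with no overlap. With libraries scaled to equal totals both loci were called higher at LN in both zones (adjusted p = 0.00316 to 0.0374). That scaling also moved the median of all tested loci upward, to 0.43 in the elongation zone and 0.14 in the division zone. Gln1-4 was also called higher in both zones without HN elongation replicate 2 (adjusted p = 0.0194 in the elongation and 0.0301 in the division zone) and in the division zone without HN elongation replicate 1 (0.0301).

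Genes that supply reducing power fell at 4 of 8 loci in the elongation zone, beside 12.5% of all tested loci. Among division libraries 0 of 8 passed in limma, beside 3.27% called lower of all tested loci. Of these 8, 4 had an unadjusted p under 0.05, as had 5786 of the 24706 tested loci. In the elongation zone the ferredoxin locus FdI averaged 386 FPKM at LN and 1136 FPKM at HN (adjusted p = 0.0163), the ferredoxin locus fdx2 98.5 and 297 FPKM (adjusted p = 0.00922) and fnr1, a ferredoxin-NADP reductase gene, 14.8 and 40.2 FPKM (adjusted p = 0.0198). FdI and fdx2 lie in a span shared by 4 loci, and leaf ferredoxin is itself part of the photosynthetic apparatus. In the division zone FdI and fdx2 differed by -1.33 and -0.98 on the log2 scale (adjusted p = 0.0509 and 0.0687).

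Of the other loci on the nitrate transport list, 2 of 6 were tested. GRMZM2G161459, which the gene table does not name, had 0.874 and 1.21 FPKM in LN division libraries, against 8.48 and 6.75 FPKM in HN division libraries (log2 difference -2.07, adjusted p = 0.0158). Elongation libraries had 17.7 and 10.3 FPKM at LN, against 21.9 and 29.8 FPKM at HN (-0.87, adjusted p = 0.0632). NRT1.2 differed by -0.02 in the elongation zone (adjusted p = 0.942). CNX5, named for the synthesis of the molybdenum cofactor that nitrate reductase carries, differed by 0.36 in the elongation zone and 0.08 in the division zone (adjusted p = 0.189 and 0.853). NLP8, of the NIN-like family known for nitrate signalling, stayed under 1 FPKM in all 8 libraries and was not tested. Both hemoglobin loci were called lower in both zones, as were 2.32% of tested loci. Both averaged under 1 FPKM in each LN group and passed the filter through HN groups alone. Plant hemoglobins scavenge nitric oxide, which nitrate reductase can make from nitrite. HB was listed at 0 in both LN elongation libraries, against 9.18 and 10.2 FPKM in HN elongation libraries (limma adjusted p = 0.000810). It had 0.459 and 0.677 FPKM in LN division libraries, against 30.4 and 27.2 FPKM in HN division libraries (adjusted p = 0.000249). Hb2 averaged 0.245 FPKM at LN and 5.54 FPKM at HN in the elongation zone (adjusted p = 0.00206) and 0.230 and 2.35 FPKM in the division zone (adjusted p = 0.00927).

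**Figure D5:**
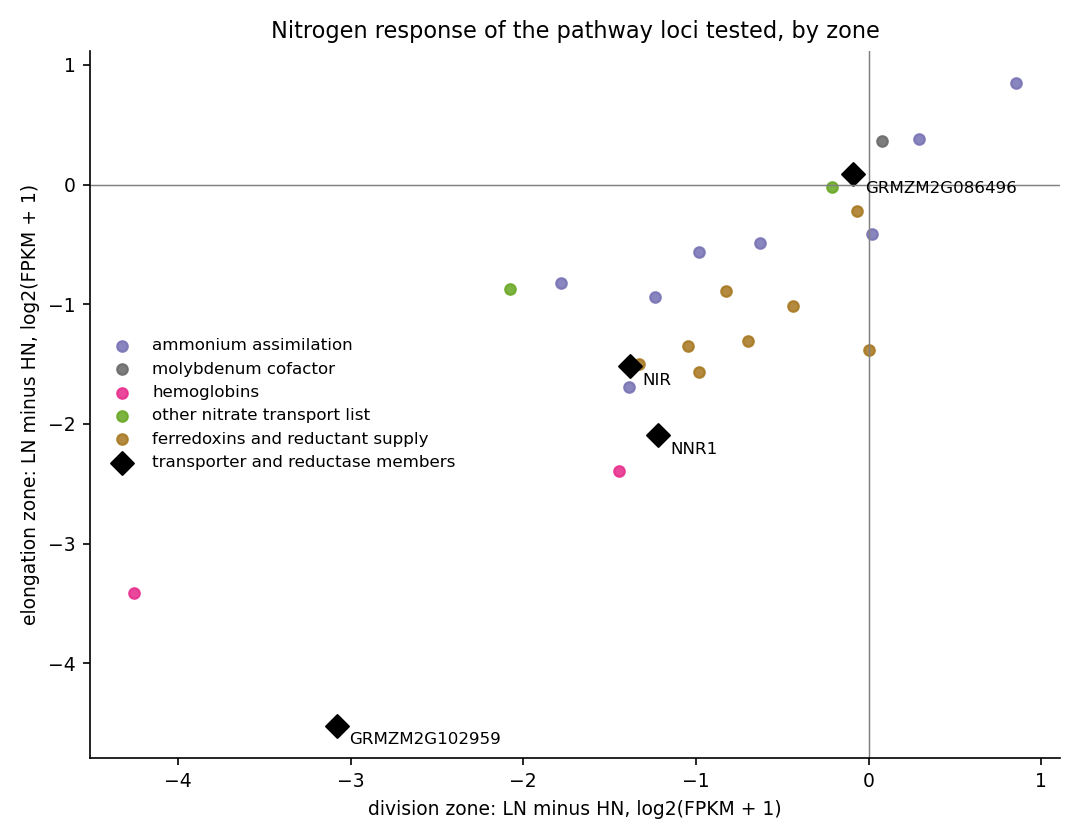
Difference between LN and HN on the log2(FPKM + 1) scale in the division zone (horizontal) and the elongation zone (vertical), 1 point per tested locus, with the 4 members as black diamonds and other pathway loci coloured by list. GRMZM2G102959 and the hemoglobin HB are lowest in both zones, and no called locus lies above 0.

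Likeness of pattern was measured as Pearson's r of log2(FPKM + 1) over the 8 libraries against 1603 named loci averaging 5 FPKM or more, and is given as a description because the libraries of a group and zone share their source. The pattern of NNR1 was most like those of pcr1 (r = 0.989), por (0.985) and lhcb5 (0.984). That of NIR was most like pcr1 (0.989), DHLAAT (0.975) and ChlI (0.975). GRMZM2G102959 was most like MURE (0.983), WHY1 (0.979) and fab1 (0.978), and GRMZM2G086496 was most like TUBB4 (0.999), CM1 (0.996) and CslF6-1 (XLOC_007053, 0.996), the last of which shares its span with another locus. Among the members, NNR1 and NIR were alike at r = 0.979, NIR and GRMZM2G102959 at 0.920, and GRMZM2G102959 and GRMZM2G086496 at 0.333. pcr1 averaged 291 FPKM in LN and 1812 FPKM in HN elongation libraries, and TUBB4, a beta-tubulin, 214 FPKM in LN and 199 FPKM in HN elongation libraries.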

How the data were processed

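The deposited values, 1 per assembled locus and library, were read as FPKM from their behaviour alone, since neither header nor labels state the unit: they are not whole numbers and column totals differ. According to the submitters' processing notes, TopHat2, edgeR and B73 RefGen_v3 were used; no source used here gives versions, roles, normalisation or numbers of reads, so depth and counting precision are unknown. Its 44070 lines were reduced to 43110 loci, repeated lines holding equal values. Starts are counted from 0 in the table and printed from 1. Names came from the RefSeq table of Zm-B73-REFERENCE-NAM-5.0 by identifier only. Of the members, 6 were matched there; GRMZM2G428027 and GRMZM2G102959 were not, and GRMZM2G086496 has no informative name there, so their classes are those of the list they came from. Sequences were not used here.

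The 24706 loci that averaged 1 FPKM or more in some group were fitted with limma 3.58.1 (R 4.3.3, intensity trend) on log2(FPKM + 1) with 4 group means and 4 residual degrees of freedom; p values were Benjamini-Hochberg adjusted over all tested loci, with a threshold of 0.05. Labels give replicate numbers without saying that they mark a shared plant or batch, so there was no block. Nothing says that replicates were grown separately, so p values measure the spread between these libraries. Tables and figures used Python 3.11.15, pandas 2.3.3, scipy 1.17.1 and matplotlib 3.10.9.

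Members, lists and markers were chosen with earlier results of these data known. All members were named; from each pathway list up to 3 called loci per nitrogen comparison by p, or up to 2 uncalled ones by level; for each member with a group mean of at least 5 FPKM, the 3 named loci most like it. Storage globulins and loci with ambiguous synonyms were left out of the lists. Alternatives were a pseudocount of 0.1, 2 other filters, 2 scalings, a replicate block, fits of the 2 groups compared, and each library left out in turn.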

Additional observations from a re-analysis of the deposited data

How the results depend on the processing

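The count of called loci depended strongly on the settings, so it does not rank all the comparisons. It moved least between zones at LN, where it was 12007, though it shifted there too with 1 library left out. For LN against HN in the division zone it was 1257, and 2164 with equal totals, 506 with the replicate block, 1977 with only the 2 groups fitted and 66 to 3529 with 1 library left out. In the elongation zone it was 5531, and 8628 with equal totals, 42 with only the 2 groups fitted and 452 to 10154 with 1 library left out. Between zones at HN it was 10308, and 6714 with only the 2 groups fitted and 6106 to 12594 with 1 library left out. For the difference between the nitrogen responses it was 70, and 152 with no filter, 255 with equal totals, 7 with the replicate block and 21 to 3590 with 1 library left out. The cause was not tested. Equal totals made 62.1%, 77.4% and 40.9% of called loci higher in these first 3 comparisons in place of 35.6%, 44.1% and 52.9%, and equal medians made 27.0% higher in the elongation zone. A pseudocount of 0.1 made 60.9% of those called for the difference higher in place of 45.7%.

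For every tested member each called difference kept its sign under the 7 other settings and the 8 fits without 1 library. The replicate block ended the call of NIR in the division zone and of GDH1 in the elongation zone (adjusted p = 0.0510) and changed no other call of a locus named for a nitrogen comparison. Differences between replicates correlated across loci at r = -0.19 to 0.33 between groups. This cannot decide whether the replicate numbers mark a shared plant or batch. With 2 libraries per group, intervals were wide, and 4 of 8 members were too low to test.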
